A study of Glycine max with 12 samples.

Results

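The 100 loci described here were the steadiest of the soybean leaf in these libraries. They were chosen as candidate reference loci for work on leaf ageing. Counts were summed per locus and expressed as CPM, the counts of a locus for every 1000000 counts of the library, scaled with TMM, a factor per library taken from the trimmed mean of log ratios over many loci. Of 52660 loci, 39443 passed the filter on low counts and 3805 had a mean of 20 CPM or more over the 12 libraries. The 100 of these with the lowest coefficient of variation (CV, the SD of the CPM divided by its mean) were taken, and are called the steady loci below. All 100 passed both limits, because the limits were part of the choice. The levels, CVs and fold changes of the steady loci in these 12 libraries are therefore descriptions and not tests.

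RNA came from discs of the third leaf of Glycine max, with 3 replicates in each of 4 groups. BR16 is the wild-type cultivar and GmNAC81-3 is 1 transgenic line in that background which overexpresses GmNAC81 from the 35S promoter. Each genotype was sampled at V3, an early vegetative stage 20 days after germination, and at R6, a seed-filling stage 80 days after germination. The V3 and the R6 libraries came from separate sequencing sets, so leaf age and sequencing set cannot be told apart, and a second transgenic line was not analysed here. The files carry no marker annotation by which the labelled tissue could be checked.

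A reference gene is measured beside a gene of interest to correct for the amount of RNA in a sample, and it serves only if its own level does not follow the condition. Leaf ageing is a hard case. An ageing leaf dismantles its chloroplasts and exports nitrogen to the seeds, and a large part of its transcriptome moves while it does so. GmNAC81 is a NAC-domain transcription factor of the stress-induced cell death pathway, and vacuolar processing enzymes are the cysteine proteases of the vacuole that act in that pathway. The deposited files pair the IDs of the steady loci with no gene names or functions, so the loci are given by ID. The first number of an ID is the chromosome.

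Library totals ran from 42797825 to 77952663 counts. The 3 most abundant loci took from 32.1% to 58.5% of a library, and TMM factors ran from 0.498 to 1.45, with all 3 GmNAC81-3 V3 libraries at 0.657 or less. GmNAC81 itself, Glyma.12G022700 summed with a row labelled as its terminator, was at 3.59, 6.45 and 7.26 CPM in BR16 V3 and at 81.9, 183.7 and 33.4 CPM in GmNAC81-3 V3. At R6 the genotypes overlapped, at 60.7, 11.3 and 41.9 CPM in BR16 and 46.6, 53.5 and 69.1 CPM in GmNAC81-3. The terminator row held 75 to 2416 counts in the BR16 libraries and 474 to 2532 in those of GmNAC81-3, so it adds to the values of both genotypes.

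The CV of the steady loci ran from 4.44% to 10.6%, with a median of 9.29%. Over the 3805 loci of 20 CPM or more the median CV was 49.9%. Within the steady loci the highest library lay between 1.18 and 1.48 times the lowest, with a median of 1.36. For the 3805 loci the median of that ratio was 4.45, and 163 of them, or 4.28%, stayed within 1.5 times. The steady loci were of moderate level. Their means ran from 20.0 to 141.8 CPM with a median of 28.0 CPM, where the 3805 loci had a median of 33.8 CPM. The share of loci that were steady was 3.17% at 20 to 25 CPM, 3.97% at 25 to 30 CPM and 3.42% at 30 to 50 CPM. It was 1.01% at 50 to 100 CPM and 0.524% above 100 CPM, where only 3 of 572 loci were among the 100. The median CV rose over the same steps of level from 39.4% to 64.2%.

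**Figure D1:**
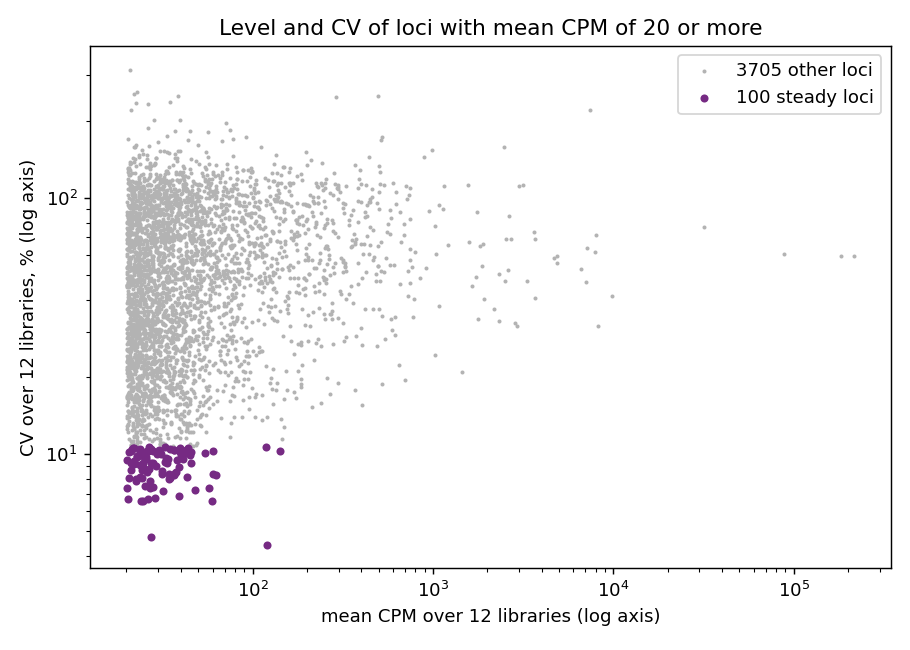
Mean CPM (x, log axis) against CV over the 12 libraries in percent (y, log axis) for the 3805 loci of 20 CPM or more, 1 point per locus, with the 100 steady loci in purple. The steady loci lie at a CV of 10.64% or less and mostly at the low end of the level axis, since only 3 of them exceed 100 CPM.

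The steadiest locus was Glyma.13G366100, on chromosome 13, with a mean of 120.1 CPM and an SD of 5.33 CPM. It was at 116, 121 and 126 CPM in BR16 V3, 118, 119 and 117 CPM in BR16 R6, 119, 109 and 118 CPM in GmNAC81-3 V3 and 126, 129.6 and 122 CPM in GmNAC81-3 R6. The GmNAC81-3 R6 libraries lay above those of GmNAC81-3 V3 and of BR16 R6 without overlap, the other groups overlapped, and the CV was 4.44%. The second was Glyma.05G047400, with a mean of 27.5 CPM, an SD of 1.30 CPM and a CV of 4.73%. Its libraries were at 28.5, 29.9 and 27.6 CPM in BR16 V3, 26.2, 27.9 and 25.4 CPM in BR16 R6, 25.8, 28.5 and 28.5 CPM in GmNAC81-3 V3 and 26.9, 27.9 and 27.2 CPM in GmNAC81-3 R6. The highest library was thus a young BR16 leaf and the lowest an old BR16 leaf, 1.18 times apart. These were the only loci with a CV under 5%.

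The third, Glyma.14G044500, had a CV of 6.53%. It was at 58.8, 59.7 and 56.7 CPM in BR16 V3, 59.5, 58.0 and 60.7 CPM in BR16 R6, 66.0, 67.0 and 57.8 CPM in GmNAC81-3 V3 and 54.0, 63.1 and 56.1 CPM in GmNAC81-3 R6. Its BR16 libraries kept within 56.7 to 60.7 CPM while those of the transgenic line spread from 54.0 to 67.0 CPM. Glyma.19G136000, at a mean of 24.2 CPM, spread in the same way, from 22.5 to 25.8 CPM in BR16 and from 22.2 to 27.6 CPM in GmNAC81-3. Glyma.01G121400, at 24.7 CPM and a CV of 6.59%, was higher at R6 than at V3 within each genotype without overlap. It was at 23.8, 24.9 and 23.0 CPM in BR16 V3 and 26.8, 26.5 and 26.2 CPM in BR16 R6, and at 23.2, 21.4 and 24.6 CPM in GmNAC81-3 V3 and 25.9, 24.7 and 25.8 CPM in GmNAC81-3 R6. Glyma.11G214800 held the closest group means of all the steady loci, 1.04 times apart. Its libraries ran from 18.4 to 22.8 CPM, and both of these ends were GmNAC81-3 R6 libraries.

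The other loci of the first 10 had CVs between 6.70% and 7.21%. Glyma.04G232700 had a mean of 26.4 CPM and ran from 23.0 to 29.0 CPM. Glyma.11G113400 had a mean of 28.9 CPM and ran from 26.1 to 31.5 CPM. Glyma.01G094200 was the most abundant of these, with a mean of 38.9 CPM and libraries from 34.0 to 44.5 CPM. Glyma.02G232900 had a mean of 31.8 CPM and ran from 29.1 to 35.3 CPM. The lowest library of a locus was a GmNAC81-3 library in 8 of the first 10, as the plot of these loci by library shows. Over all the steady loci the lowest library was split between the genotypes. In replicate order it fell in BR16 V3 for 17, 5 and 14 loci and in BR16 R6 for 2, 8 and 2. It fell in GmNAC81-3 V3 for 8, 8 and 11 and in GmNAC81-3 R6 for 11, 4 and 10. The highest library fell in GmNAC81-3 V3 for 14, 12 and 23 loci and in GmNAC81-3 R6 for 11, 16 and 3. In BR16 V3 it fell for 3, 7 and 1 and in BR16 R6 for 3, 3 and 4.

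**Figure D2:**
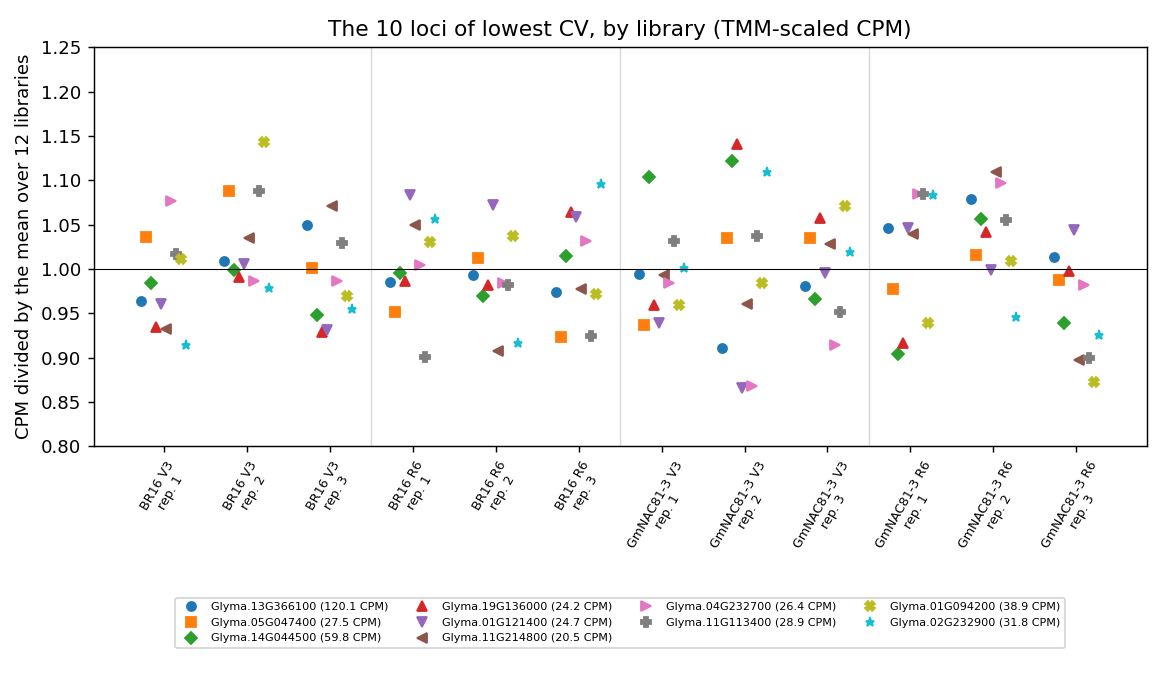
CPM of the 10 steadiest loci in each of the 12 libraries, divided by the mean of the locus over the 12 libraries (y, linear axis), 1 symbol per locus and library. Points lie between 0.866 and 1.14 times the mean of their locus, and those of Glyma.13G366100 between 0.911 and 1.08.

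At the upper end of the level range Glyma.15G007100 had a mean of 141.8 CPM, Glyma.13G366100 120.1 CPM and Glyma.18G275200 118.1 CPM. Glyma.18G275200 ran from 96.7 CPM in BR16 V3 replicate 1 to 136.6 CPM in GmNAC81-3 V3 replicate 3. At the lower end were Glyma.14G001200 with 20.0 CPM, Glyma.09G063100 with 20.1 CPM and Glyma.11G214800 with 20.5 CPM. The last ranks inside the limit were Glyma.18G275200 with a CV of 10.61%, Glyma.08G285600 with 10.61% and Glyma.05G145800 with 10.64%. Just outside were Glyma.10G082300 with 10.67%, Glyma.01G202600 with 10.73% and Glyma.04G253800 with 10.76%, so the limit cut through a continuous run of values. Glyma.01G202600 is listed in the supplementary tables of the study as a putative UPF1 RNA helicase, UPF1 being a factor of nonsense-mediated mRNA decay in eukaryotes. Its mean was 36.0 CPM and its libraries ran from 32.5 to 45.6 CPM. The study used loci named Helicase and Unknown 2 as RT-qPCR controls, and since their IDs are not given in the sources used here, whether either is among the loci above is not known.

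The remaining spread of the steady loci was larger than counting alone would give for nearly all of them. Their lowest counts in any library ran from 454 to 3269, and the counting error expected from counts taken as they stand was 1.20% to 3.10%. Counts below 50 were even in 75.0% to 86.1% of cases, and the models of a locus carried near-equal counts, so a fragment may have been counted several times. With each count taken as a copy from a read pair and from every model of its locus, the expected counting error was 1.70% to 11.3%, and the CV of 96 of the 100 loci still exceeded it. These errors cover counting only.

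The steady loci varied more among young leaves than among old ones. Over the 6 V3 libraries their CV had a median of 9.42% and over the 6 R6 libraries a median of 6.69%, and 77 of the 100 had the higher CV at V3. This was not particular to them, since 2894 of the 3805 loci, or 76.1%, also had the higher CV at V3. Within groups the median CV of the steady loci was 4.63% in BR16 R6, 6.68% in BR16 V3, 7.38% in GmNAC81-3 R6 and 8.82% in GmNAC81-3 V3. Over the 3805 loci it was 14.8%, 20.2%, 19.2% and 24.4% in the same groups. The GmNAC81-3 V3 libraries also had the smallest scaled sizes, worth 24.6 to 30.3 counts per CPM against 58.6 to 112.6 in the others, and the part of size in their spread was not tested.

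The group means of a steady locus were between 1.04 and 1.28 times apart, with a median of 1.15, against a median of 2.67 for the 3805 loci. The highest of the 4 group means fell in GmNAC81-3 V3 for 42 loci, in GmNAC81-3 R6 for 29, in BR16 R6 for 17 and in BR16 V3 for 12. The lowest fell in BR16 V3 for 42 loci, in BR16 R6 for 26, in GmNAC81-3 V3 for 17 and in GmNAC81-3 R6 for 15. These counts were not made for the 3805 loci, which also tilted to the line. Of those, 2699 were higher in GmNAC81-3 than in BR16 at V3 and 2275 at R6, against 72 and 60 of the 100. Differences between groups made up a median of 43.1% of the sum of squares of the log2 values of a steady locus, and 77.1% for the 3805 loci. With 3 libraries per group, part of this share comes from the spread of single libraries, so it overstates the part of genotype and age. The share was 3.41% in Glyma.13G241800, whose libraries ran from 27.2 to 40.0 CPM with both ends in GmNAC81-3 R6. It was 88.7% in Glyma.15G007100.

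A low CV did not mean that young and old leaves overlapped. In 6 of the 100 loci the 6 V3 libraries did not overlap the 6 R6 libraries, where 34.0% of all 39443 loci had no overlap by stage. Glyma.15G007100 was at 123, 134 and 139 CPM in BR16 V3 and 131, 118 and 126 CPM in GmNAC81-3 V3, and at 154, 150.0 and 154 CPM in BR16 R6 and 159, 155 and 156 CPM in GmNAC81-3 R6. Its old leaves thus held 1.20 times the level of its young leaves, with a CV of 1.86% among the R6 libraries. Glyma.08G048800, Glyma.08G360000 and Glyma.10G207900 were also higher at R6, by 1.17, 1.17 and 1.16 times. Glyma.08G048400 and Glyma.08G292900 were lower at R6, at 0.871 and 0.866 times their V3 level. Glyma.08G048400 and Glyma.08G048800 lie 4 numbered steps apart on chromosome 8 and differed with age in opposite directions, the first being at 41.3, 37.5 and 38.1 CPM in BR16 V3 and 35.2, 34.1 and 33.9 CPM in BR16 R6, the other at 50.3, 58.6 and 58.4 and 68.4, 59.0 and 63.9 CPM. By genotype 1 locus had no overlap, where the share of all loci was 0.664%. Glyma.09G063100 ran from 16.4 to 19.9 CPM in BR16 and from 19.9 to 24.0 CPM in GmNAC81-3, and its closest libraries nearly touched.

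The 4 comparisons between groups that differ in genotype or age alone were fitted over all tested loci with edgeR's quasi-likelihood test, and a call needed both a Benjamini-Hochberg adjusted p under 0.05 and a change of more than 1 on the log2 scale in either direction. The rule used the same values, so the counts for the steady loci are set beside the background with nothing read from them. Between GmNAC81-3 V3 and BR16 V3 edgeR called 0 of the 100 steady loci and 3.44% of all loci. Their log2 fold changes ran from -0.21 to 0.29 with a median of 0.09, and 72 were positive. Over the 3805 loci the median was 0.28 and 2699 were positive, so the tilt was not particular to the steady loci. With replicate number as a block, a pairing that the labels do not state, 857 loci were called in place of 1358, and again 0 of the steady loci. Between BR16 R6 and BR16 V3 edgeR called 0 of 100 and 34.7% of all loci, with log2 fold changes of the steady loci from -0.28 to 0.28. Between GmNAC81-3 R6 and GmNAC81-3 V3 edgeR called 0 of 100 and 36.5% of all loci, with log2 fold changes from -0.31 to 0.32. Between GmNAC81-3 R6 and BR16 R6 edgeR called 0 of 100 and 0.0989% of all loci, with log2 fold changes from -0.27 to 0.26. These comparisons share groups of libraries.

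At an unadjusted p under 0.05 edgeR likewise gave 0 of the steady loci in each comparison, against 23.4%, 51.3%, 52.9% and 6.86% of all loci in the order above. DESeq2 gave 14, 7, 10 and 2 of the 100 at that limit, against 26.1%, 54.1%, 55.1% and 8.496% of all loci, with 0 called. The median SE of a log2 fold change of a steady locus was 0.16. This SE comes from the edgeR fit, which draws on the spread of all loci, so it is not the replicate spread of the locus itself. In Glyma.15G007100, for example, the SD was 6.44 CPM on a mean of 125 CPM in GmNAC81-3 V3. It was 2.00 CPM on a mean of 157 CPM in GmNAC81-3 R6. The largest fold change within each comparison was a log2 value of 0.32 ± 0.17 (SE) for Glyma.15G007100 with age in GmNAC81-3, of 0.29 ± 0.15 for Glyma.09G015400 with genotype at V3, of -0.28 ± 0.14 for Glyma.08G207800 with age in BR16, and of -0.27 ± 0.16 for Glyma.05G145800 with genotype at R6. The change of the age response with genotype was called by edgeR for 0 of the 100 loci and for 0.0710% of all loci. At an unadjusted p under 0.05 there were 0 of the 100, against 13.1% of all loci.

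The steadiness of these loci held relative to the TMM scale and not relative to the library totals. In CPM without TMM the CV of the steady loci had a median of 33.4% and none was under 27.4%. The loci moved together there. The median over the 100 of the log2 ratio of a library to the mean was -0.91, -1.04 and -0.63 in the 3 GmNAC81-3 V3 libraries, and between -0.20 and 0.50 in the other 9. With TMM the same medians lay between -0.07 and 0.06. The 3 GmNAC81-3 V3 libraries also gave from 44.1% to 58.5% of their counts to the 3 most abundant loci, Glyma.13G028200, Glyma.11G162200 and Glyma.05G073600, against 32.1% to 54.2% in the others. With these 3 loci left out of the totals the median CV was still 26.8%.

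**Figure D3:**
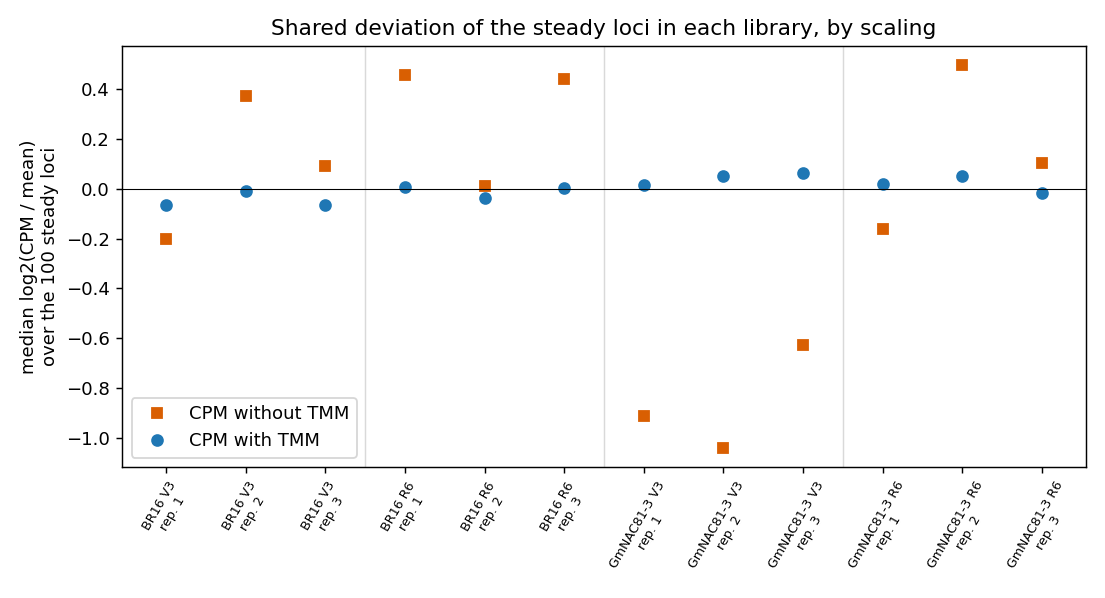
Median over the 100 steady loci of log2(CPM divided by the mean of the locus over the 12 libraries), per library (y), for CPM without TMM (squares) and with TMM (circles). Without TMM the GmNAC81-3 V3 libraries lie at -0.91, -1.04 and -0.63, and with TMM all libraries lie between -0.07 and 0.06.

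A ratio of 2 loci within a library needs no scaling. Over the 4950 pairs of steady loci the SD of the log2 ratio over the 12 libraries ran from 0.045 to 0.28 with a median of 0.18, and over all pairs of the 3805 loci the median was 1.13. Loci chosen for a low CV on 1 scale must have ratios of low spread to each other, so these values describe the choice and give no support to it. The loci with the lowest mean SD against the other steady loci were Glyma.19G136000 with 0.14 and Glyma.13G366100 and Glyma.14G044500 with 0.15 each. Glyma.05G047400, Glyma.02G232900 and Glyma.11G214800 followed at 0.15. Set against all 3805 loci in place of the steady loci, the same measure chose 44 of the 100 again, with Glyma.13G366100 and Glyma.11G214800 not among them. The 3805 loci were picked by TMM-scaled CPM and had a median CV of 49.9%, so this measure also depends on how a locus moves with them. Joining loci narrowed the spread. The geometric mean of the first 3 loci had a CV of 2.44% over the 12 libraries, that of the first 5 a CV of 1.96% and that of the first 10 a CV of 2.26%, and all 100 together gave 2.64%, in the libraries used for the choice.

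Such a panel can be set against loci that move. Glyma.14G092800, listed by the study as a gamma vacuolar processing enzyme, was at 16.6, 34.1 and 17.6 CPM in BR16 V3 and at 296.8, 340.8 and 322.3 CPM in BR16 R6. It was at 29.0, 155.4 and 180.3 CPM in GmNAC81-3 V3 and at 1115, 644.4 and 397.3 CPM in GmNAC81-3 R6. The mean of BR16 R6 was 14.04 times that of BR16 V3 in TMM-scaled CPM, 14.2 times as a ratio of counts to the geometric mean of the first 10 steady loci, and 15.04 times in CPM without TMM. For GmNAC81-3 V3 over BR16 V3 the same scales gave 5.33, 5.38 and 2.52 times. For GmNAC81 the mean of GmNAC81-3 V3 was 17.3 times that of BR16 V3 with TMM, 17.4 times against the panel and 7.58 times without TMM. With the terminator row left out these were 11.9, 12 and 5.25 times. Between the ages of the transgenic line the direction for GmNAC81 itself depended on the scale, with R6 at 0.566 times V3 with TMM, 0.567 times against the panel and 1.26 times without TMM, or 0.589, 0.588 and 1.31 times with the terminator row left out. The panel was chosen on the TMM scale, so it is no check of that scale.

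Steadiness was also read in libraries that the choice had not used, by applying the same rule to 6 libraries and scaling the other 6 on their own for the CVs. Differences in level between the sets were read on the TMM scale of all 12 libraries. The 100 loci chosen on the BR16 libraries had a median CV of 5.51% there and of 13.5% in the GmNAC81-3 libraries, where the 4772 loci of 20 CPM or more had a median of 46.4%. Of the 100, 59 stayed at a CV of 15% or less in GmNAC81-3, against 7.67% of the 4772 loci. The reverse choice, on the GmNAC81-3 libraries, gave a median CV of 9.56% in BR16, against 45.6% for 3000 loci, and 79 of the 100 were at 15% or less, against 14.8% of the 3000. Both sets of 6 libraries contained both ages. The 2 choices shared 20 loci, 20% of each. Of the 100 loci chosen on BR16, 38 were among the steady loci, and of the 100 chosen on GmNAC81-3, 59 were. The steady loci were themselves chosen with these libraries, so this overlap is no outside check.

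A choice made at 1 age was read within the other age and across the ages. Loci chosen on the V3 libraries had a median CV of 9.96% within R6, against 20.8% for the loci of 20 CPM or more. Of the 100, 80 were at 15% or less, against 31.7%. Their level moved between the ages by a median of 0.24 on the log2 scale. In 11 of the 100 the level moved by over 1, and the farthest, by 3.06, was Glyma.08G264900. Loci chosen on the R6 libraries had a median CV of 15.5% within V3, against 29.6%. Of the 100, 48 were at 15% or less, against 16.8%, and 8 moved by over 1, the farthest being Glyma.16G210500 with 2.27. Over all loci of 20 CPM or more the level moved by over 1 in 54.1% and 40.8% for the same choices. The V3 and R6 choices shared 10 loci. Chosen on 1 genotype over both ages, 0 of the 100 differed from its level in the other genotype by over 1 on the log2 scale, where 7.15% and 7.80% of the loci of 20 CPM or more did. Glyma.13G366100, Glyma.05G047400 and Glyma.12G083300 were among the 100 in all 4 choices. Glyma.12G083300 had a mean of 24.4 CPM and ran from 21.9 to 29.9 CPM, its highest library being GmNAC81-3 V3 replicate 3.

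**Figure D4:**
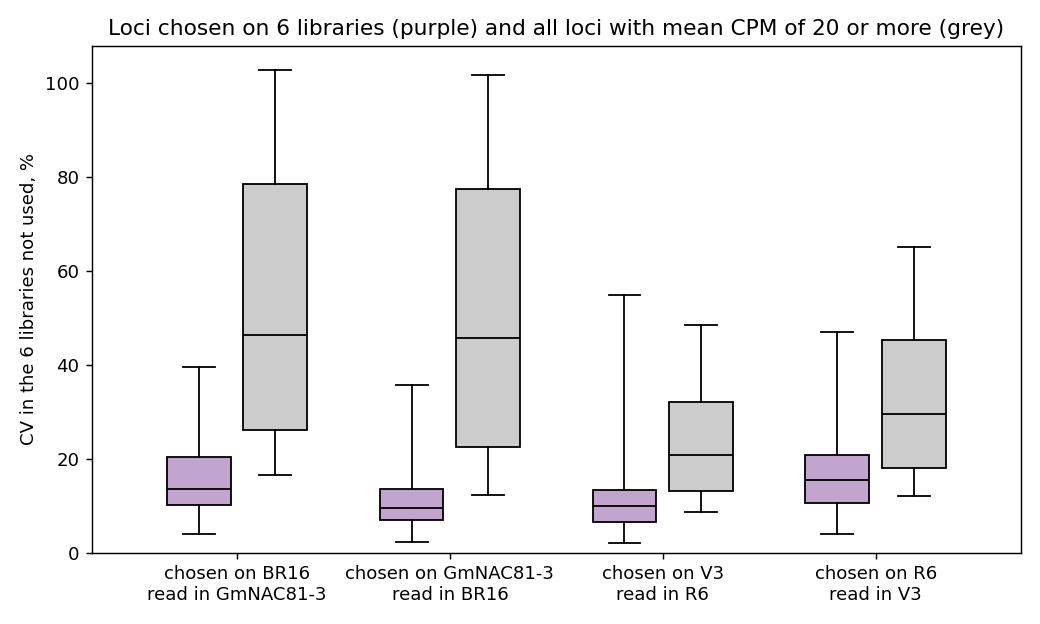
CV in percent (y) in the 6 libraries that the choice did not use, for the 100 loci chosen on the other 6 (purple, whiskers at the lowest and highest locus) and for all loci of 20 CPM or more in the choosing libraries (grey, whiskers at the 10th and 90th percentiles), with the median and quartiles as a box. The medians of the chosen loci are 13.5%, 9.56%, 9.96% and 15.5%, below those of the grey boxes at 46.4%, 45.6%, 20.8% and 29.6%.

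In every panel of 3 to 20 loci the geometric mean had a lower CV, outside the libraries used for the choice, than the median of its loci taken singly. Averaging loci of like spread gives this for nearly any set. No panels of other loci were formed, so it gives no support to these loci. The geometric mean of the first 3 loci chosen on BR16 had a CV of 5.14% in GmNAC81-3, where the median of these loci taken singly was 9.91%. The first 5 loci chosen on GmNAC81-3 had a geometric mean with a CV of 2.63% in BR16, against 8.64% singly. More loci did not always give less spread, since the first 10 chosen on BR16 gave 8.18% in GmNAC81-3 and the first 20 gave 6.28%.

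When the choice was made on 11 libraries, the 12th lay at a median distance of 0.078 to 0.25 on the log2 scale from the mean of the other 11. Over the loci of 20 CPM or more the same median was 0.38 to 0.78. Both were read on the TMM scale of all 12 libraries. For 11 of the 12 libraries at least 79 of the 100 chosen loci lay within 0.3, and for GmNAC81-3 V3 replicate 3 only 59 did, against 25.2% of the loci of 20 CPM or more. The farthest single value was 1.47, for Glyma.05G109300 in GmNAC81-3 R6 replicate 1. Of the 100 steady loci, between 68 and 93 were chosen again without 1 library, with the fewest when GmNAC81-3 V3 replicate 3 was left out. The 54 loci that were chosen again in all 12 cases were also chosen with DESeq2 size factors and with upper-quartile factors. By the mean SD of their log2 ratios to all loci of 20 CPM or more, 27 of the 54 were chosen again, and in CPM without TMM 0 were. The ratios need no scaling, but most of their partners vary far more than the steady loci, so they are no neutral measure of steadiness. The steadiest of the 54 were Glyma.13G366100, Glyma.05G047400, Glyma.14G044500, Glyma.19G136000, Glyma.01G121400, Glyma.04G232700, Glyma.11G113400, Glyma.01G094200, Glyma.02G232900 and Glyma.01G219800. Of these, Glyma.13G366100, Glyma.01G121400, Glyma.04G232700, Glyma.01G094200 and Glyma.01G219800 were not chosen by the log2 ratios. Of the first 10 steady loci only Glyma.11G214800, whose mean lies close to the limit of 20 CPM, was not among the 54.

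The share that each transcript model takes of its locus was not part of the rule and could be tested. Of the steady loci 51 have 2 or more models and 49 have 1, against 1657 and 2148 of the 3805 loci. Counts were spread nearly evenly over models. In the 26 loci with 2 models the larger took a median of 53.5%, from 50.5% to 73.3%, and in the 809 loci of 20 CPM or more with 2 models the median was also 53.5%. With reads apparently counted for every model they overlap, a switch between models would be understated. With edgeR's diffSpliceDGE over the loci with at least 2 tested models, the shares changed between V3 and R6 in 0 of 51 steady loci, against 0.666% of 12905 loci, and between genotypes in 0 of 51, against 0.0697%. At an unadjusted p under 0.05 there were 0 of 51 in both tests, against 463 and 220 of the 12905 loci, or 3.59% and 1.70%. These shares are low, so counts of 0 among 51 loci do not set the steady loci apart from the background.

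The lowest unadjusted p by stage was in Glyma.01G121400. Its largest of 3 models took 40.9, 42.1 and 41.7% in BR16 V3, 43.7, 44.7 and 42.7% in BR16 R6, 37.3, 39.8 and 39.2% in GmNAC81-3 V3 and 42.3, 41.9 and 45.0% in GmNAC81-3 R6. The means were 40.2% ± 1.79 (SD, n = 6) at V3 and 43.4% ± 1.31 (SD, n = 6) at R6 (edgeR, adjusted p = 1). The values of the ages overlapped with the genotypes pooled, but not within either genotype. Next by p were Glyma.09G234400, Glyma.05G047400, Glyma.10G209000 and Glyma.20G054800. In Glyma.05G047400 the larger of 2 models was at 51.2% at V3 and 53.9% at R6, in Glyma.10G209000 at 53.1% and 50.5% and in Glyma.20G054800 at 57.4% and 59.6%. In each of these the values of the ages overlapped with the genotypes pooled. Within 1 genotype they did not, BR16 for Glyma.05G047400 and GmNAC81-3 for Glyma.10G209000 and Glyma.20G054800, while in the other genotype they did. In Glyma.09G234400 the largest of 4 models was at 26.5% and 26.4%. By genotype the lowest p was in Glyma.11G134900, whose larger model took 75.2% ± 1.80 (SD, n = 6) in BR16 and 71.4% ± 1.73 (SD, n = 6) in GmNAC81-3 (edgeR, adjusted p = 1). Its values were 73.4, 74.8 and 75.0% in BR16 V3 and 78.4, 76.1 and 73.7% in BR16 R6, against 70.2, 70.6 and 74.3% in GmNAC81-3 V3 and 69.9, 72.7 and 70.5% in GmNAC81-3 R6. The genotypes overlapped through 1 GmNAC81-3 V3 library. Glyma.10G008700 and Glyma.06G324000 followed, with differences between genotypes of 1.12 and 1.41 percentage points of the largest model. Over all 51 loci the share of the largest model moved by a median of 0.744 percentage points with stage, by 3.22 at most, and by a median of 0.714 points with genotype, by 3.87 at most.

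**Figure D5:**
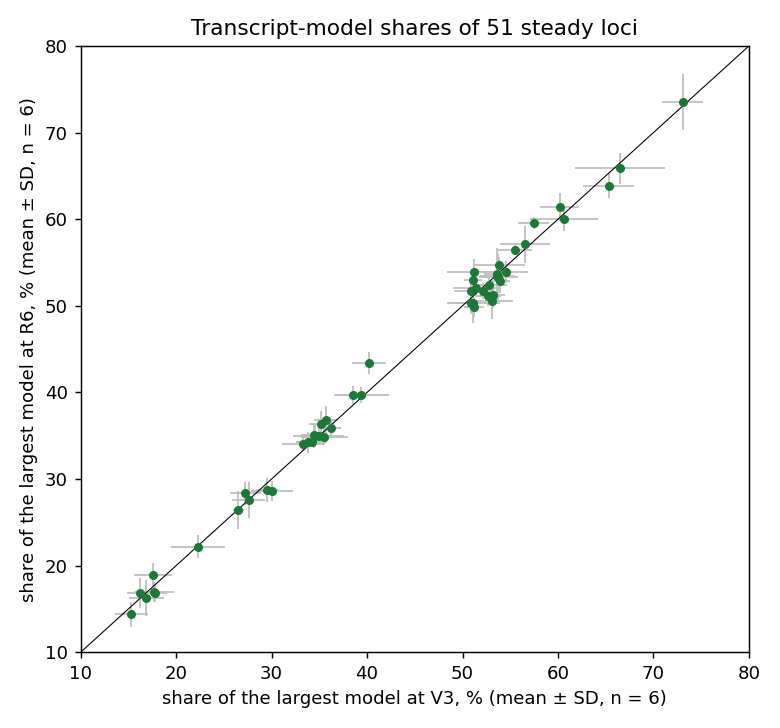
Share of the largest transcript model of a locus in percent at V3 (x) and at R6 (y), mean ± SD over 6 libraries each, for the 51 steady loci with 2 or more models. The points lie along the line of equal shares, with the largest departure, 3.22 percentage points, in Glyma.01G121400.

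The steady loci lay on all 20 chromosomes by their IDs, with the most, 13, on chromosome 8 and the fewest, 2 each, on chromosomes 7 and 16. On chromosome 8, 5% of the 260 loci of 20 CPM or more were steady, where 100 of 3805 were over the genome. The lowest shares were 0.948% on chromosome 7, 1.33% on chromosome 10 and 1.41% on chromosome 16. Close pairs were few. Glyma.20G054600 and Glyma.20G054800 lie 2 numbered steps apart, and 7 pairs in all lay within 20 steps. Glyma.20G054800 ran from 18.6 to 23.3 CPM and Glyma.20G054600 from 33.7 to 46.4 CPM, and both were lowest in GmNAC81-3 R6 replicate 1 and highest in BR16 R6 replicate 3. Whether close IDs are copies that share reads was not tested, since no sequences were used here.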

How the data were processed

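The study's methods describe 3 plants per group, stranded paired-end libraries and mapping to the soybean genome Wm82.a2.v1. They name Bowtie 2 and Rsubread, while the submitters' processing notes name HISAT2 2.1.0 and featureCounts, so the aligner is not settled here. The authors deposited raw counts of 84782 transcript models and of 1 row labelled as the terminator of Glyma.12G022700, which was added to that locus. Counts were summed per locus and analysed in R 4.3.3 with edgeR 4.0.16 (filterByExpr, TMM, quasi-likelihood fits of the 4 groups, diffSpliceDGE), with DESeq2 1.42.0 as an alternative. The scripts were tested on simulated data. The members and lists were chosen with earlier results of these data known. Named loci were those of lowest CV, of extreme level, at the limit of the choice, of lowest p for model shares, or kept with TMM, DESeq2 and upper-quartile factors and without each 1 library. The loci without overlap by stage or genotype, with extreme group shares or fold changes, or farthest in a check were named after their values were seen. The labels do not say whether replicate numbers pair the groups, and the block by number was run only as an alternative. Same-numbered replicates of the V3 groups had correlations of 0.40, 0.22 and 0.13. Replicate 2 of BR16 V3 and of GmNAC81-3 R6 gave 0.21, so these values do not settle a pairing. The RefSeq table at hand belongs to another assembly and carries no IDs of these loci, so functional groups, reference families, paralogs, promoters and tissue markers were not analysed here.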

Additional observations from a re-analysis of the deposited data

How the results depend on the processing

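Of the 100 steady loci, 91 were chosen again with DESeq2 size factors, 93 with upper-quartile factors, 95 by the SD of log2 CPM and 92 with no filter on low counts. With CPM without TMM 0 were chosen again and the median CV was 33.4%. With the 3 most abundant loci left out of the totals, an alternative chosen after seeing the data, 0 were chosen again and the median CV was 26.8%. By the mean SD of log2 ratios to all loci of 20 CPM or more, also added later, 44 were chosen again, and without the 3 GmNAC81-3 V3 libraries, added later, 44. The count was 43 by the spread of the 4 group means, 42 with a minimum of 10 CPM, 9 with a minimum of 50 CPM and 54 with transcript models in place of loci. On the 6 V3 libraries alone it was 33, and on the 6 R6 libraries alone it was 18, with a median CV of the steady loci of 6.75%. Without 1 library it ran from 68 to 93, and the median CV from 8.68% to 9.51%. The cause of these differences was not tested.

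In the 4 comparisons and both tests of model shares, 0 steady loci were called under every alternative run, the replicate block (0 in each) and the omission of each library (0 to 0) included. The rule used the values of the 4 comparisons, so nothing is read from those zeros. For model shares the background was too low for 0 of 51 to set the steady loci apart. With age, edgeR called 13676 of 39443 loci in BR16 and 14410 in GmNAC81-3. DESeq2 called 14424 and 15187 of 39406. Over all loci the count called moved by more than 1.5 times in some. Between GmNAC81-3 V3 and BR16 V3 it was 1358 with edgeR, 3158 with DESeq2 and 151 to 2819 without 1 library. Between GmNAC81-3 R6 and BR16 R6 it was 39 with edgeR, 224 with DESeq2, 19 with the replicate block and 9 to 48 without 1 library. For model shares by stage 86 loci were called, 40 with at least 10 counts in every library, and by genotype 9, then 5, with 6 under the block. Same-numbered replicates of the R6 groups correlated at -0.37 to -0.12, and the labels state no pairing by number. The alternatives planned for the study's reference genes, paralogs and promoter words were not run, for want of a link between IDs and sequences.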

Other observations

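The supplementary tables of the study describe 395 loci, chosen there as differentially expressed by the study's own fit. Of these, 25.6% had a mean of 20 CPM or more, 0 were among the 100 steady loci and 4 had a CV of 15% or less. That was 3.96% of those at 20 CPM or more, against 7.78% of the 3805 loci. The 4 were Glyma.01G202600, a putative UPF1 RNA helicase, with 10.7%, Glyma.06G314300, listed as FHY3, with 12.7%, Glyma.17G022300, listed as SYD, with 13.6%, and Glyma.13G145100, listed as a metal ion transporter of the NRAMP family, with 14.7%. In the edgeR fit used here Glyma.01G202600 was not called in any of the 4 comparisons. Its log2 fold changes were 0.095 with genotype at V3 and 0.16 at R6. With age they were -0.12 in BR16 and -0.056 in GmNAC81-3. In Arabidopsis FHY3 is a transcription factor of far-red light signalling and SYD a chromatin remodelling ATPase.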
